A study of Mus musculus with 2 samples.

Results

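The chemokine and chemokine receptor genes were examined in livers of miR-182-5p KO mice and of wild-type (WT) mice after 2/3 partial hepatectomy (2/3 PH), the removal of the larger part of the liver that starts regeneration. The genes were taken by name from the authors' table, as every symbol made of Ccl, Ccr, Cxcl, Cxcr, Xcl, Xcr, Cx3cl or Cx3cr, a number and at most 1 further letter. This gave 62 entries under 57 symbols, among 34745 listed genes, because Ccl21a, Ccl21c and Ccl27a have further copies on unplaced scaffolds. Of the 62 entries, 44 are ligands and 18 are receptors, and 25 (19 ligands and 6 receptors) reached 10 counts over both libraries, the minimum for a test. The miR-182-5p KO mice were heterozygous and carried the deletion on a single allele, and the WT mice served as controls. All mice were male, 8 to 10 weeks old, had undergone 2/3 PH, and the livers were taken at day 3. Poly(A) RNA of whole liver was sequenced from 1 library per genotype. How many mice went into a library is not given in the sources used here.

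Chemokines are small secreted proteins that direct the movement of leukocytes along concentration gradients, and their receptors are G protein-coupled receptors. They are classed by the spacing of their first cysteines into CC, CXC, XC and CX3C ligands, and the receptors are named for the class they bind. Inflammatory ligands are induced through NF-kB, interferon and related pathways, while homeostatic ligands are made constantly and place lymphocytes and stem cells in tissues. In the liver, Kupffer cells (the resident macrophages), endothelial cells, stellate cells and hepatocytes are all known sources of chemokines, and monocytes and neutrophils that enter after injury carry many of the receptors.

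The libraries held 13247497 (KO) and 13163348 (WT) counts. Mitochondrially encoded mRNAs received 51.7% of all counts in KO and 31.0% in WT, which left fewer counts for nuclear genes in KO. Library sizes were therefore scaled by TMM, which sets the bulk of the genes to a common level, and values below are log2 fold changes of KO over WT on that scale unless another is named. Under scaling by total counts, log2 fold changes are 0.60 lower, and less than that for genes with few counts, where the prior count weighs more. With 1 library per genotype, the exact binomial test used here compares a pair of libraries and says nothing of the spread between animals, and the 95% intervals cover counting error only. In whole liver, fewer cells of a type and less RNA per cell cannot be told apart. The targeted gene, Mir182, was not analysed here, so its level could not be used to check the genotypes.

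The sequence of the targeted microRNA is shown because a microRNA acts on transcripts that hold a match to its seed, bases 2 to 8, which are given in capitals. It is the RefSeq entry at chr6:30165962-30165986 (GRCm38.p6, minus strand).
mmu-miR-182-5p: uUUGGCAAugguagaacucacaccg
The 8-base match to this seed, TTGCCAAA, was absent from the annotated 3′ UTRs of the 25 tested chemokine and receptor genes, while 5.5% of 12541 tested genes held it. The 7-base match, which stops before the final A, was found in Ccr2 and Cxcl12, 2 of the 25 genes, against 13.4% of the tested genes. A match is a description of the sequence and not a measured site.

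Promoter windows with an NF-kB match are shown for 5 counted ligands, because NF-kB is a known inducer of many inflammatory chemokines. Ccl27a, also counted and with a match, is not shown. Of the 5, Ccl9 was called lower and Cxcl3 higher, and Cxcl1, Cxcl2 and Cxcl10 were not called. The called ligands Ccl5 and Cxcl11 had no promoter to search. RefSeq promoters, from 250 bases before to 50 after the start, were matched for 41 of the 57 symbols (48 promoters). The NF-kB consensus, searched on both strands, was found in 11 of these 48 promoters (22.9%) and in 8.46% of 32851 promoters. It was found in Ccl1, Ccl20, Ccl27a, Ccl9, Ccr1, Ccr3, Ccr6, Cxcl1, Cxcl10, Cxcl2 and Cxcl3, and not in the promoters of Cxcl12 and Cxcl14. The windows below are 40 bases in the direction of the gene, with the match in capitals.
Cxcl1: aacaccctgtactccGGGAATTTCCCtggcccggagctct
Cxcl2: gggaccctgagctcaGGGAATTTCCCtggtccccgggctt
Cxcl3: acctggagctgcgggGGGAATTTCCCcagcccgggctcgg
Cxcl10: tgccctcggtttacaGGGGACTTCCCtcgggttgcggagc
Ccl9: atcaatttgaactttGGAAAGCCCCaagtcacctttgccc
These windows lie at chr5:90891159-90891198, chr5:90903787-90903826 and chr5:90786013-90786052 on the plus strand, and at chr5:92348969-92349008 and chr11:83578647-83578686 on the minus strand. The neighbouring genes Cxcl1, Cxcl2 and Cxcl3 share the run GGGAATTTCCC. The same search found the AP-1 motif TGANTCA in 18.8% of the 48 promoters and 7.81% of the 32851, the TATA box TATAAA in 25% and 13.6%, and the interferon-response motif GAAANNGAAA in 6.25% and 3.44%. The first 2 of these were both matched as words in the Ccl9 promoter. The AP-1 match there was TGAATCA, with A at the base left open in the motif. The TATAAA matches there, on either strand, all lay upstream of the AP-1 and NF-kB matches. Position was not part of the search, so these matches describe the sequence and do not show a working TATA box or AP-1 site. The 300-base promoter of Ccl9 is given in full at chr11:83578587-83578886 (minus strand), with the matches to all motifs in capitals.
Ccl9 promoter: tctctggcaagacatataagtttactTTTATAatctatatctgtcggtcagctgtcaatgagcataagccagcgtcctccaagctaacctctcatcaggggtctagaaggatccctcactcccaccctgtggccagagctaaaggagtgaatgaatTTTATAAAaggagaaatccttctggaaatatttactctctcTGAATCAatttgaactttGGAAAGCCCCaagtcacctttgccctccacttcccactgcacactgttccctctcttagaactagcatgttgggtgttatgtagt

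Of the 25 tested chemokine and receptor genes, 4 were called higher in the KO library, at an adjusted p-value under 0.05 and a difference of at least 2-fold. They were Ccl5, Ccr2, Cxcl11 and Cxcl3. This is 16%, against 7.97% of the 13561 genes tested. Another 2, Ccl9 and Ccr1, were called lower, 8% against 8.32% of all genes tested. The median log2 fold change of the 25 genes was 0.23 and that of all genes tested was 0.00, with 18 of the 25 (72%) above 0 against 50.02% of all genes. Cxcl3 and Ccr1, each with 10 counts over both libraries, reached the minimum mainly or wholly through the library in which they were higher, so their calls follow in part from the minimum. Scaled by total counts, none of the 25 was called higher, against 3.47% of all genes, and 6 were called lower, against 25.0%. They included Ccl24, Ccl6, Ccl9, Ccr1 and Cxcl12. On that scale 7 of the 25 genes were above 0, against 2479 of the 13561 genes tested. With an assumed coefficient of variation of 0.2 between animals, none was called higher (3.60% of all genes) and Ccl9 alone was called lower (3.27%).

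**Figure D1:**
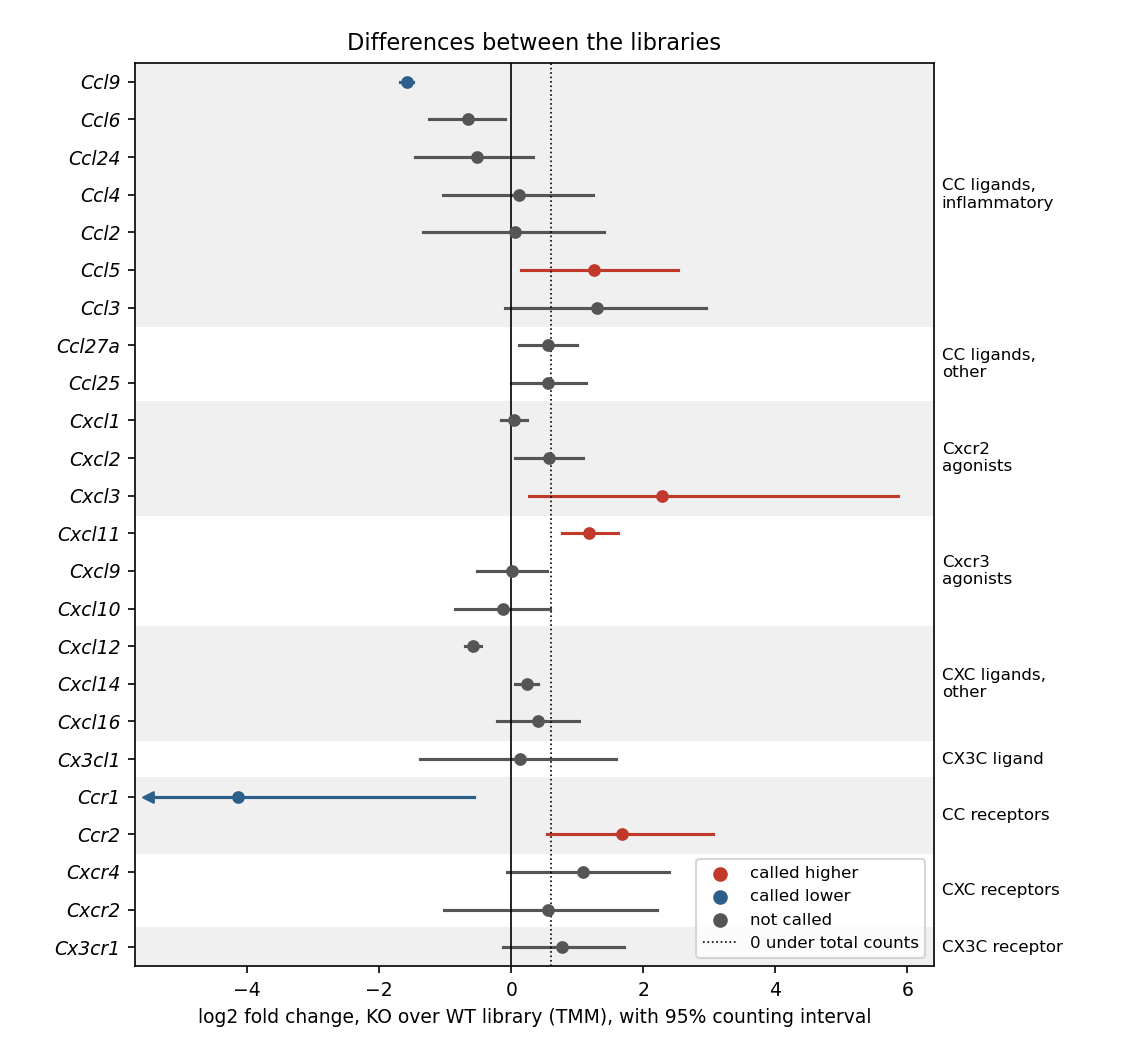
Log2 fold change of KO over WT (x axis, TMM scale) with its exact 95% counting interval for 24 of the 25 tested genes (y axis), grouped by class, with calls coloured and a dotted line at 0.60, which becomes about 0 under total counts. Ccl9 lies at -1.59 with a narrow interval, Cxcl11 at 1.18, and most other intervals are wide. The arrow marks the open lower end for Ccr1, which had 0 counts in KO and whose point depends on the prior count.

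The ligand with the most counts, and with the smallest adjusted p among the 25 genes, was Ccl9, a CC ligand of Ccr1 made mainly by myeloid cells. Ccl9 (ENSMUSG00000019122, chromosome 11 from 83572919 to 83578636, minus strand) had 908 counts in KO and 4111 in WT. Its log2 fold change was -1.59 (95% interval -1.69 to -1.48), a 3.0-fold lower level in KO (exact binomial test, adjusted p = 2.251e-240). Of all genes tested, 4.76% had a lower log2 fold change than Ccl9. By FPKM, the authors' counts per gene length and library total, it stood at 21.3 in KO and 96.9 in WT, which placed it at rank 862 and rank 353 of 13561 genes. It was the member with the highest FPKM in both libraries. Its call ended when a coefficient of variation of 0.4 was assumed, and under total counts its log2 fold change was -2.19.

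Ccl9 also accounted for most of the difference in the summed counts of the family. All 62 entries together had 3180 counts in KO and 7749 in WT, a log2 fold change of -0.69, and without Ccl9 the sums were 2272 and 3638 and the log2 fold change was -0.09. Ccl9 made up 28.6% of the family's counts in KO (95% interval 27.0% to 30.2%, Clopper-Pearson) and 53.1% in WT (51.9% to 54.2%), a comparison that needs no scaling between libraries. Cxcl12 took a similar share in both, with 24.3% (22.8% to 25.8%) in KO and 22.4% (21.5% to 23.4%) in WT. The shares of Cxcl14 were 15.0% and 7.87%, and those of Cxcl1 were 11.2% and 6.70%, both larger in KO. Shares are parts of the same total, so a smaller share of Ccl9 leaves larger shares to the other genes. On the TMM scale the log2 fold changes of Cxcl14, Cxcl1 and Cxcl12 were 0.23, 0.04 and -0.58. These 4 ligands held 79.0% of the counts in KO and 90.1% in WT, and the receptors held 2.89% and 1.56%.

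**Figure D2:**
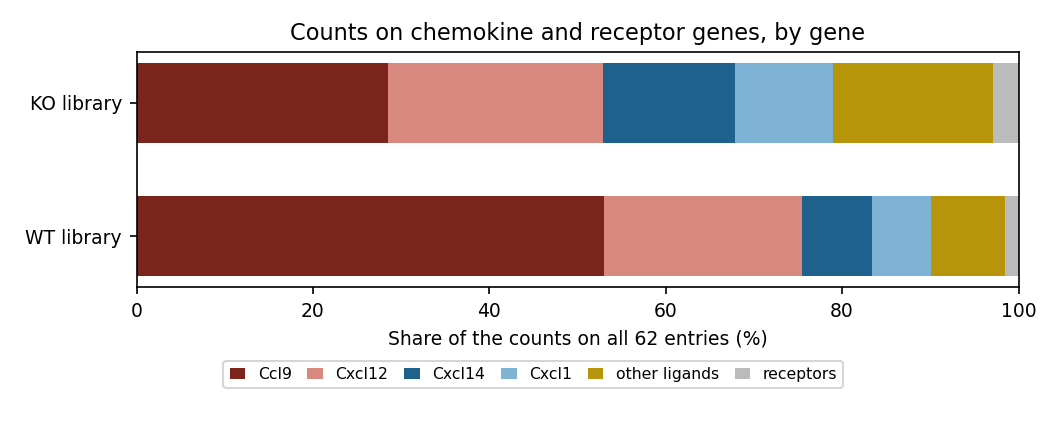
Share of the counts on all 62 chemokine and receptor entries (x axis, %) in the KO and the WT library, by gene, with the remaining ligands and the receptors pooled. Ccl9 takes 28.6% in KO and 53.1% in WT.

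The other inflammatory CC ligands had far fewer counts. Ccl6, a neighbour of Ccl9 that also binds Ccr1, had 37 counts in KO and 88 in WT, a log2 fold change of -0.65 (-1.25 to -0.09), with an adjusted p of 0.0468 in the exact binomial test but under the 2-fold limit. Its gene starts 9245 bases beyond the end of Ccl9. Ccl24, an eotaxin that binds Ccr3, had 17 and 37 counts, and its log2 fold change was -0.52 (-1.45 to 0.33), which counting error alone covers.

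Ccl5, a ligand of Ccr1 known from T cells and platelets, had 18 counts in KO and 11 in WT. Its log2 fold change was 1.26 (0.14 to 2.53), with an adjusted p of 0.0453 in the exact binomial test. The call of Ccl5 was lost with a prior of 5 counts, with a lowest total of 1 count, with totals without mitochondrial genes, total counts, or an assumed coefficient of variation of 0.2. Ccl3 and Ccl4, macrophage inflammatory proteins, had 12 and 7 counts, and 13 and 18 counts, in KO and WT. Ccl2, the main monocyte attractant and ligand of Ccr2, had 9 and 13 counts. None of Ccl2, Ccl3 and Ccl4 passed the test, and their counts do not exclude a 2-fold difference in at least 1 direction. Of the 12 CC ligands classed here as inflammatory, 7 were tested, 1 higher and 1 lower, with log2 fold changes from -1.59 to 1.30. The remaining 5 had 0 to 2 counts in a library: Ccl7 had 1 and Ccl8 had 2 in KO and neither had any in WT, and Ccl11, Ccl12 and Ccl26 had none.

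Of the CC ligands classed here as homeostatic or tissue-restricted, only Ccl25 and Ccl27a were counted, out of 17 entries. The class is a working list and includes Ccl1 and Ccl20, whose promoters held the NF-kB consensus. Ccl25, the ligand of Ccr9 that guides lymphocytes to the thymus and gut, had 54 counts in KO and 55 in WT and stood at 0.56 (0.00 to 1.13). Ccl27a, the skin chemokine that binds Ccr10, had 89 and 91 counts, and its log2 fold change was 0.56 (0.12 to 1.00), with an adjusted p of 0.0227 in the exact binomial test and under 2-fold. Both were below 0 under total counts, at -0.04. The value of Ccl27a is uncertain, because 68.6% of the 51-base words of its longest transcript occur in transcripts of another gene, and because its gene overlaps Il11ra1, which had 406 and 541 counts. Ccl1, Ccl17, Ccl19, Ccl20, Ccl21a, Ccl21b, Ccl21c, Ccl22, Ccl27b and Ccl28 had 0 counts in both libraries, as did the scaffold copies of Ccl27a. A count of 0 allows up to 3 counts, which is 0.279 TMM-scaled CPM in KO and 0.185 in WT. The copies of Ccl21 and Ccl27 are near-identical, so reads from them may have been split or dropped in counting.

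The agonists of Cxcr2 attract neutrophils. Cxcl1 had 355 counts in KO and 519 in WT, with a log2 fold change of 0.04 (-0.15 to 0.24), so a difference of 2-fold is outside its counting interval. Cxcl2 had 65 and 66 counts, and its log2 fold change was 0.57 (0.05 to 1.09), with an adjusted p of 0.0530. Cxcl3 had 8 and 2 counts and stood at 2.28 (0.27 to 5.87), with an adjusted p of 0.0396 in the exact binomial test. Its call was lost under total counts and with an assumed coefficient of variation of 0.2. Cxcl5 and Cxcl15 had 0 counts in both libraries. The 3 counted genes share the 11-base run printed above and lie with Cxcl5 and Cxcl15 within 146.6 kb of chromosome 5. Under total counts, Cxcl1 and Cxcl2 stood at -0.56 and -0.03.

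The agonists of Cxcr3, which interferon induces and which attract activated T cells and NK cells, were all counted. Cxcl11 (ENSMUSG00000060183, chromosome 5 from 92359544 to 92365485, minus strand) had 118 counts in KO and 78 in WT. Its log2 fold change was 1.18 (0.76 to 1.62), a 2.27-fold higher level in KO (exact binomial test, adjusted p = 8.594e-08). It was the best-counted of the genes called higher, yet under total counts it was at 0.58 and lost its call, as it did with an assumed coefficient of variation of 0.2. Cxcl9 had 51 and 76 counts and stood at 0.02 (-0.52 to 0.55), and Cxcl10 had 28 and 46 counts and -0.12 (-0.86 to 0.58). The interval of Cxcl11 does not overlap those of its neighbours Cxcl9 and Cxcl10, 44.1 kb in all, and this holds whatever the scaling. Cxcl10 and Cxcl11 overlap Art3, which had 2 and 18 counts, and whether counting used strand is not given in the sources used here.

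Among the other CXC ligands, Cxcl12 had the second largest number of counts. It is the ligand of Cxcr4, made by stromal and endothelial cells, and retains blood progenitors and lymphocytes. Cxcl12 (ENSMUSG00000061353, chromosome 6 from 117168535 to 117181367, plus strand) had 773 counts in KO and 1738 in WT. Its log2 fold change was -0.58 (-0.70 to -0.45), a difference past the test (exact binomial test, adjusted p = 5.917e-20) but under 2-fold, and it was called lower under total counts, at -1.18. Cxcl14, a CXC ligand of epithelia and liver, had 476 and 610 counts, with a log2 fold change of 0.23 (0.06 to 0.41) and an adjusted p of 0.0203 in the exact binomial test. Its direction turned to -0.37 under total counts. Cxcl16, a membrane-bound ligand of Cxcr6, had 43 and 49 counts and stood at 0.40 (-0.22 to 1.02). Its gene overlaps Zmynd15, which had 82 and 116 counts. Cxcl13 and Cxcl17 had 0 counts in both libraries. Of the remaining classes, Cx3cl1, the membrane-bound ligand of Cx3cr1, had 8 and 11 counts, and Xcl1, made by T cells and NK cells, had 3 and 2.

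On the FPKM scale, the 4 ligands with the highest levels were Ccl9, Cxcl14, Cxcl1 and Cxcl12, in this order in both libraries. The FPKM of Cxcl14 were 19.7 in KO and 25.4 in WT, those of Cxcl1 were 9.49 and 14.0, and those of Cxcl12 were 4.51 and 10.2. Ccl9 and Cxcl14 were thus close in KO, at 21.3 and 19.7, and far apart in WT, at 96.9 and 25.4. The lengths that the FPKM imply ran from 0.52 to 2.98 times the annotated exon length of the tested genes. Counts per kilobase of annotated exon gave the same order of these 4.

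**Figure D3:**
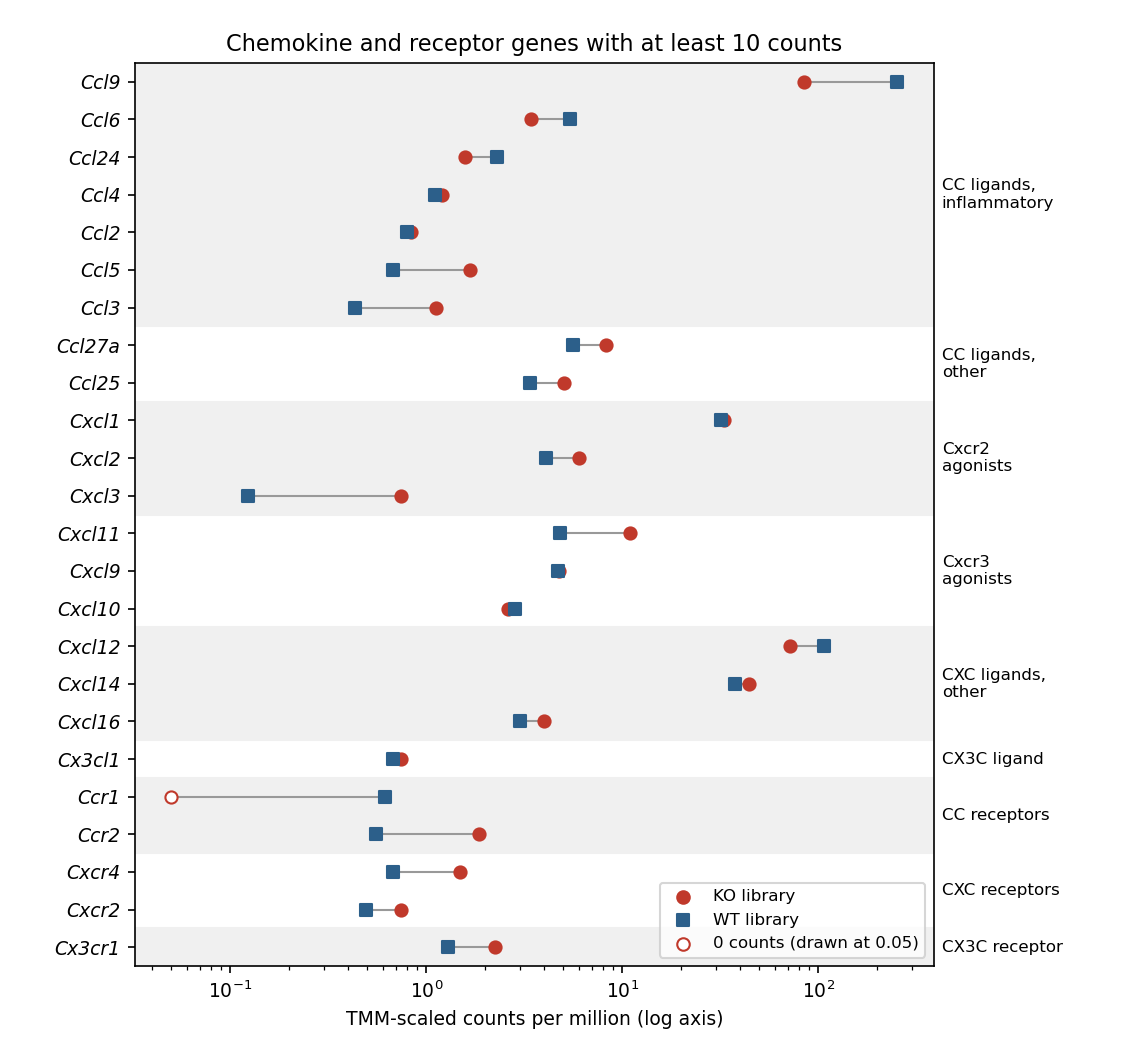
TMM-scaled CPM, counts relative to the scaled library size (x axis, log scale) in the KO library (circles) and the WT library (squares) for 24 of the 25 tested genes (y axis), grouped by class, with 1 library per genotype and no error bar. Ccl9 is at 84.4 in KO and 254 in WT, and the receptors all lie below 3.

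The receptors were near the limit of counting in whole liver. Of 18 listed, 6 were tested, and all 18 together had 92 counts in KO and 121 in WT. Ccr2, the receptor by which monocytes answer Ccl2, had 20 counts in KO and 9 in WT. Its log2 fold change was 1.68 (0.54 to 3.06), a 3.20-fold higher level in KO, with an adjusted p of 0.00562 in the exact binomial test. The call of Ccr2 was lost under total counts, although its log2 fold change there was 1.10, and with an assumed coefficient of variation of 0.2. Ccr1, the receptor of Ccl9, Ccl6, Ccl3 and Ccl5, had 0 counts in KO and 10 in WT. Its fitted log2 fold change of -4.14 depends on the prior count, and its exact 95% interval is open below and ends at -0.57 (exact binomial test, adjusted p = 0.0190). With KO set to the 3 counts that a count of 0 allows, and the WT counts taken without error, its level in KO was at least 2.21-fold lower. This call was lost with an assumed coefficient of variation of 0.2.

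Cxcr4, the receptor of Cxcl12, had 16 counts in KO and 11 in WT, with a log2 fold change of 1.09 (-0.07 to 2.39) and an adjusted p of 0.0921 in the exact binomial test. Cxcr2, the receptor of the neutrophil attractants, had 8 counts in each library. Cx3cr1, a receptor of monocytes and macrophages, had 24 and 21 counts, and its span in the authors' table overlaps 5 other genes. The 12 receptors that were not tested had 7 counts or fewer over both libraries. Cxcr3 had 3 counts in KO and 4 in WT, Cxcr1 had 3 in WT, Ccr3, Ccr9 and Xcr1 had 2 each in WT, and Ccr7 and Cxcr5 had 1 each in WT. No count fell on Ccr4, Ccr6, Ccr8, Ccr10 and Cxcr6.

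Set beside their receptors, the ligands showed no common direction, though the receptors had few counts. Ccr1 and its most abundant ligand, Ccl9, were both lower in KO, but Ccr1 reached the minimum of 10 counts through WT alone. Another of its ligands, Ccl5, was called higher at 18 and 11 counts, a call lost under several other settings. Ccr2 was higher, and its main ligand Ccl2 had a log2 fold change of 0.06 (-1.34 to 1.40). Cxcl12 was at -0.58 and its receptor Cxcr4 at 1.09, where only the interval of Cxcl12 excludes 0. Ligands were also counted whose receptors were at or near 0, as with Cxcl16 and Cxcr6, Ccl25 and Ccr9, and Cxcl9, Cxcl10, Cxcl11 and Cxcr3. In the CC ligand group of chromosome 11 from 83525778 to 83664683, which holds Ccl5, Ccl9, Ccl6, Ccl3 and Ccl4, log2 fold changes ran from -1.59 for Ccl9 to 1.30 for Ccl3.

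Depth set what could be seen. An observed level exactly 2-fold higher in KO passes the test from 49 counts over both libraries, which 14 of the 25 genes reached. An observed 2-fold lower level passes from 57, which 13 reached. Counting error was left out of these limits, so a true difference of that size can still be missed there. For 4-fold differences the limits were 15 and 20 counts, reached by 23 and 20 genes.

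Genes that act with the chemokines but fall outside the naming rule were read from 4 lists. Of 12 chemokine-like ligands and receptors, 11 were tested, none was higher and 4 were lower, with a median of -0.69. The lower genes were Cklf, a chemokine-like factor, at 4 and 29 counts in KO and WT, Ackr1, a scavenging receptor of venules and red cells, at 2 and 15, and the platelet chemokines Ppbp at 3 and 19 and Pf4 at 3 and 17. Of 28 genes of NF-kB signaling and inducing cytokines, 26 were tested, 3 were higher and none was lower, with a median of 0.54. Tnf, a cytokine that induces many chemokines, had 17 counts in KO and 0 in WT. Tnfaip3, an NF-kB target that restrains the pathway, had 28 and 6 counts and stood at 2.70 (1.52 to 4.38), and Tlr2, a receptor for bacterial lipoproteins, had 21 and 11 counts and 1.48. Under total counts Tlr2 was at 0.89, under the 2-fold limit, while Tnfaip3 was at 2.12 and Tnf at 5.12. The median of the list on that scale was -0.06. Il6 had 0 counts in both libraries. In the same list Nfkbia, the NF-kB inhibitor that is itself an NF-kB target, was at -0.38 (-0.64 to -0.12).

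Of 35 genes of receptor signaling, 34 were tested, none was higher and 7 were lower, with a median of 0.04. The lowest were Gnb1, a G protein beta subunit, at 111 counts in KO and 1228 in WT (log2 fold change -2.87), and the myeloid kinase Fgr at -1.72. Of 22 genes that process or present chemokines, 19 were tested, with a median of -0.09. Selp, which captures leukocytes on endothelium, was higher, at 11 and 4 counts, and reached the minimum mainly through KO. The adhesion molecule Vcam1, at 33 and 110 counts, and the protease Mmp2 were lower. The background for these lists is the same 7.97% higher and 8.32% lower.

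Cell type markers moved with some of these genes. Over all genes tested, 7.97% were called higher, 8.32% were called lower and 50.02% were above 0. This is the background for the marker lists here and in the next paragraph. All 12 Kupffer cell markers were below 0, with a median of -0.56, and 3 of them, Folr2, Adgre1 and Marco, were called lower. The log2 fold changes of the 12 ran from -1.71 for Folr2, close to that of Ccl9, to -0.08 for Csf1r. The summed counts of the 12 were 1880 in KO and 4023 in WT. The largest parts of these sums came from Clec4f and Cd5l, at log2 fold changes of -0.29 and -0.31. Clec4f, which defines the cell type, had 600 and 1108 counts, so the labelled tissue held Kupffer cells in both libraries. Per count on these markers, Ccl9 had 0.483 counts in KO and 1.02 in WT, a log2 ratio of -1.08 (-1.19 to -0.98) that needs no scaling, with the marker sums taken as fixed. The same ratio was -0.15 (-0.75 to 0.42) for Ccl6 and -0.02 (-0.95 to 0.84) for Ccl24. Of the 10 stellate cell markers, 3 were lower (Hgf, Acta2 and Col1a1), with a median of -0.64, a highest value of 0.03 and sums of 1344 and 2989 counts, most of them on Dcn and Col3a1. Hgf had 5 counts in KO and 32 in WT, and the paper's qRT-PCR of liver found no significant difference in Hgf between the genotypes. Cxcl12 had 0.575 counts per stellate marker count in KO and 0.581 in WT, a log2 ratio of -0.02 (-0.14 to 0.11). Of the 9 sinusoidal endothelial markers, 7 were below 0, with a median of -0.36, and Lyve1 was called lower. Their sums were 1614 and 2469 counts, of which Stab1, at a log2 fold change of 0.46, had 668 and 734. Against these markers the log2 ratio of Cxcl12 was -0.56 (-0.68 to -0.43), and without Stab1 it was -0.29 (-0.42 to -0.17). These ratios were chosen after the values had been seen. The markers within a sum differ among themselves, and the part of cell numbers in Ccl9 and Cxcl12 was not tested.

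Of the 7 monocyte markers, 5 were tested, with sums of 107 and 179 counts and a median of -0.76, and the only one called higher was Ccr2 itself. Ccr2 and Cx3cr1, which belong to the family described here, were the only ones of these 5 above 0. Neutrophil markers had sums of 485 and 623 counts and a median of 0.56 over 5 tested genes, none of them called, and Ly6g was at 0 in both libraries. This median is the value of Cxcr2, which belongs to the family described here and had 8 counts in each library. S100a8, S100a9, Csf3r and Retnlg stood at 0.0006, 0.15, 0.61 and 0.64. One of 11 T and NK cell markers was tested, with sums of 13 and 28 counts, and Klrb1c, Ncr1 and Prf1 were at 0 in both. Of 3 tested dendritic cell markers, Siglech (45 and 4 counts) and Itgax (23 and 8) were higher, and Cd209a was at 0 in both. Of 6 tested B and plasma cell markers, 1 was higher and 1 lower, Cd79a (12 and 4 counts) and Jchain (4 and 22). Both reached the minimum mainly through the library in which they were higher. Of 5 cholangiocyte markers, Krt19 and Krt7 were higher. The 8 hepatocyte markers had a median of -0.01, and none was called. The part of these cell types in the calls of Ccl5, Ccr2, Cxcl11 and Cxcl3 was not tested.

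**Figure D4:**
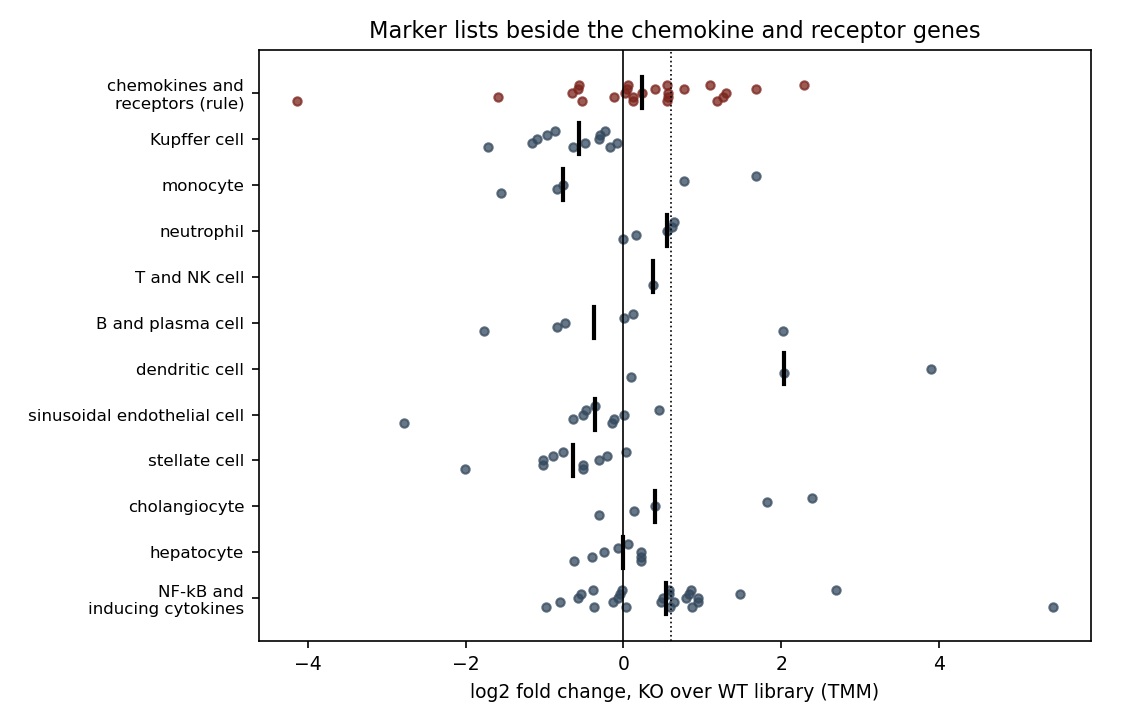
Log2 fold change of KO over WT (x axis, TMM scale) of each tested gene (points) and the median (bar) for the chemokine and receptor genes, the cell type marker lists and the NF-kB list, with a dotted line at 0.60, which becomes about 0 under total counts. All 12 Kupffer cell markers lie below 0, while the median of the chemokine and receptor genes is 0.23.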

How the data were processed

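Read counts per gene, not normalized, and FPKM were deposited by the authors in 1 table for both libraries, which were grouped by the genotype in the labels. The submitters' processing notes name HISAT2 2.0.4, StringTie, edgeR and the human build hg38. The day after 2/3 PH was taken from the study's text. The identifiers are mouse Ensembl genes, all 62 entries are in GENCODE release M21 (GRCm38), and 49 have the same coordinates there.

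The 13561 genes that reached 10 counts in the sum of the libraries were tested. Counts were scaled by TMM in R 4.3.3 with edgeR 4.0.16 (factors 0.812 for KO and 1.23 for WT), and log2 fold changes used a prior count of 0.5. For each gene, a two-sided exact binomial test set the KO count against the share that the TMM-scaled libraries predict, adjusted by Benjamini-Hochberg over all genes tested. With 1 library per genotype, edgeR's quasi-likelihood test could not be fitted. Called genes had an adjusted p-value under 0.05 and a 2-fold difference. Intervals are exact 95% binomial intervals. A level of 0 counts was taken as up to 3 counts. FPKM served for levels between genes. Steps were tested on simulated counts without variation between animals, with changes set only in well-counted genes. That simulation does not bear on genes with few counts or on the spread between animals. Python 3.11.15, pandas 2.3.3, numpy 2.4.6, scipy 1.17.1 and matplotlib 3.10.9 were used.

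Motifs were sought on both strands, and those for NF-kB, AP-1 and the interferon response allow several bases at some positions. The NF-kB consensus was GGGRNNYYCC, where R is A or G, Y is C or T and N is any base. Seed matches were sought as exact words. Promoters and the mature microRNA came from RefSeq (GRCm38.p6), and UTRs came from GENCODE. Symbols without a matched promoter include Ccl11, Ccl2, Ccl21c, Ccl24, Ccl26, Ccl4, Ccl5, Ccl7, Ccr10, Ccr7, Cxcl11, Cxcl16, Cxcl17, Cxcl5 and Cxcr5. Every family gene with at least 10 counts is named with its counts, apart from 1 that enters the counts of genes and is not reported here, and the fold change and interval are given for called genes and those with at least 50 counts. At most 4 called genes are named from each other list, beside genes named after their values were seen. The family and the lists were chosen with earlier results of these data known. The alternatives were other scalings (DESeq2 1.42.0 among them), FPKM, priors, minimums and assumed variation.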

Additional observations from a re-analysis of the deposited data

How the results depend on the processing

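No paired analysis was possible because KO and WT were sequenced as 1 library each, and no replicate could be left out. With total counts, 0 genes of the family were higher and 6 lower in KO. With FPKM (no test), 0 were higher and 5 lower. With a minimum of 50 counts, 1 was higher and 1 lower of 14 genes tested. With an assumed coefficient of variation of 0.2, 0 were higher and 1 lower, and with 0.4, 0 and 0. The median of 0.23 became -0.37 with total counts, -0.29 with FPKM and 0.031 with a minimum of 50 counts. Over all genes tested, the median of 0.00 became -0.60, -0.54 and -0.014 in the same settings. Directions turned with total counts for Ccl2 (-0.52), Ccl25 (-0.035), Ccl27a (-0.041), Ccl4 (-0.46), Cx3cl1 (-0.44), Cxcl1 (-0.56), Cxcl14 (-0.37), Cxcl16 (-0.20), Cxcl2 (-0.031), Cxcl9 (-0.58) and Cxcr2 (-0.0087). They turned with FPKM for Ccl2 (-0.44), Ccl25 (-0.033), Ccl27a (-0.037), Ccl4 (-0.45), Cx3cl1 (-0.29), Cxcl1 (-0.55), Cxcl14 (-0.37), Cxcl16 (-0.17), Cxcl2 (-0.028), Cxcl9 (-0.55) and Cxcr2 (-0.0050). With total counts without mitochondrial genes they turned for Ccl2 (-0.024), Cxcl1 (-0.043) and Cxcl9 (-0.070). Total counts and FPKM shift values down together, less so at low counts, and the minimum and the assumed variation leave fewer genes to be called by their construction. DESeq2's size factors and upper quartile factors changed no call or direction among the 25 genes. Over all genes tested, calls numbered 1081 higher and 1128 lower, 471 and 3397 with total counts, 405 and 2934 with FPKM, 642 and 766 with a minimum of 50 counts, 488 and 444 with a coefficient of variation of 0.2, and 59 and 58 with 0.4.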
